A study of Arabidopsis thaliana with 6 samples.

Results

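Tau glutathione transferases (GSTU genes) were followed in rosettes of the pmr5 mutant and of wild type Col-0. The members were the probe sets that the platform annotation pairs with exactly 1 gene and whose gene symbol is GSTU followed by a number. This gave 11 genes, each with 1 probe set, out of 13350 genes that stand alone for at least 1 of the 22746 probe sets tested. In RefSeq's gene table (TAIR10.1) there are 27 genes with such a symbol, and the other 16 were not analysed here.

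Each genotype had 3 arrays, pmr5 in the Col-0 genetic background and Col-0 itself, hybridised on 1-colour Affymetrix microarrays. All plants were untreated, grown at 22 °C under a 14 h photoperiod, and their rosettes were taken at 3 weeks. The pmr5 mutant was isolated for resistance to powdery mildew, and the labels do not name its allele. PMR5 itself had no probe set in the annotation used here, so its transcript was not analysed and the labels could not be checked on it. The labels call the 3 arrays of a genotype biological replicates without saying whether they came from separate sowings. A p-value here sets the genotype difference against the spread between these samples, which may leave out spread between sowings. In whole rosettes, fewer cells of a type and less RNA per cell cannot be told apart.

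Glutathione transferases join the tripeptide glutathione to reactive or foreign molecules, or bind such molecules without converting them. The tau class is specific to plants and is among the largest classes in Arabidopsis, and its proteins are mostly cytosolic dimers with a catalytic serine. Many tau genes are known to be induced by herbicides, explosives, pathogens and oxidative stress, and the conjugates they form are moved into the vacuole. A few members have assigned roles in hormone, light and glucosinolate pathways.

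The arrays had median log2 signals of 4.71 to 4.78 in pmr5 and 4.68 to 4.73 in Col-0. The deposited table has a shared lowest value of 2.19, which filled 25.0% to 26.3% of the probe sets on each array. On the first principal component of the varying probe sets, which held 37.7% of the variance, Col-0 replicate 1 stood apart with a score of 50.7, against -31.2 to 14.4 for the rest. The second component held 32.3%, with pmr5 replicate 2 at -36.9 and Col-0 replicate 3 at -30.7, against 4.84 to 29.1 for the rest. The leaf markers LHCB4.1, LHCB4.2 and RCA, for proteins of light harvesting and of Rubisco activation, were bright on all arrays. The log2 of their summed signal was 16.3 to 16.5 in pmr5 and 16.3 to 16.4 in Col-0. Of 2 measured root markers, EXPA7 never left the lowest value. PYK10, for a beta-glucosidase of the endoplasmic reticulum bodies of roots and seedlings, was dim at 3.28 to 5.86 in pmr5 and 3.43 to 5.20 in Col-0.

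The 11 genes were placed in 3 bands of signal. GSTU20, GSTU18, GSTU16 and GSTU27 had mean log2 signals above 8, a level that 18.2% of all tested probe sets passed. GSTU28, GSTU26, GSTU23 and GSTU25 averaged below 5, and GSTU15, GSTU21 and GSTU22 stayed at the lowest value throughout. The gap between the upper bands, from GSTU27 to GSTU28, was 3.95 log2 units in pmr5 and 4.30 in Col-0. Signals of different probe sets also depend on their probes, so this is an order of array signals and not of transcript amounts.

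GSTU20 (AT1G78370, probe set 260745_at) was the brightest member. Its protein is known as a partner of the jasmonate-conjugating enzyme JAR1 (FIN219), and the gene has been assigned to the making of aliphatic glucosinolates. Its mean signal over the 6 arrays, 11.24, was above that of 97.0% of all tested probe sets. It lay 2.00 log2 units above GSTU18 in pmr5 and 1.74 in Col-0.

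GSTU18 (AT1G10360, 264435_at) averaged 9.45 ± 0.15 in pmr5 and 9.29 ± 0.03 in Col-0 (log2 signal, SD, n = 3). GSTU16 (AT1G59700, 262916_at) averaged 8.82 ± 0.21 in pmr5 and 8.83 ± 0.24 in Col-0 (SD, n = 3). GSTU27 (AT3G43800, 252712_at) averaged 8.13 ± 0.36 in pmr5 and 8.40 ± 0.41 in Col-0 (SD, n = 3). The order GSTU20, GSTU18, GSTU16, GSTU27 held on each of the 6 arrays. The ranges of GSTU16 and GSTU27 were apart in pmr5 and overlapped in Col-0.

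In the middle band the order of GSTU28, GSTU26 and GSTU23 was less fixed. GSTU28 (AT1G53680, 259964_at) averaged 4.18 ± 0.33 in pmr5 and 4.096 ± 0.12 in Col-0 (SD, n = 3). It was above GSTU26 (AT1G17190, 262516_at) on 5 of 6 arrays, and their ranges overlapped in Col-0 only. GSTU26, whose enzyme is known to act on chloroacetanilide herbicides, averaged 3.67 ± 0.16 in pmr5 and 3.77 ± 0.24 in Col-0 (SD, n = 3). GSTU23 (AT1G78320, 260805_at) averaged 3.58 ± 0.59 in pmr5 and 3.63 ± 0.15 in Col-0 (SD, n = 3). The ranges of GSTU26 and GSTU23 overlapped in both genotypes. GSTU25 (AT1G17180, 262517_at), known for detoxifying the explosive trinitrotoluene, lay just above the lowest value at 2.34 ± 0.003 in pmr5 and 2.72 ± 0.38 in Col-0 (SD, n = 3). It was 1.23 log2 units below GSTU23 in pmr5 and 0.91 in Col-0, with their ranges apart in both genotypes.

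The remaining genes, GSTU15 (AT1G59670, 262074_at), GSTU21 (AT1G78360, 260796_at) and GSTU22 (AT1G78340, 260803_at), read 2.19 on every array of pmr5 and of Col-0. At this value no order and no difference can be read, which does not show that the transcripts were missing. It was shared on all 6 arrays by 3742 of the 22746 probe sets.

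**Figure D1:**
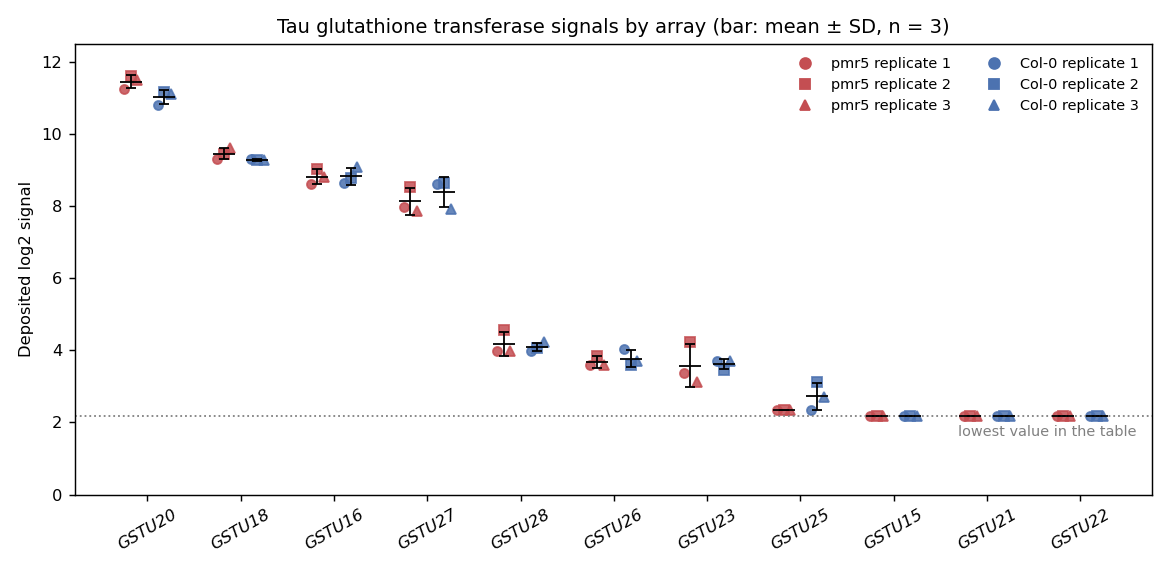
Deposited log2 signal (vertical axis) of the 11 GSTU genes, ordered by mean signal, with pmr5 to the left of Col-0 for each gene. Symbols are single arrays, black bars are mean ± SD of 3 arrays, and the dotted line is the table's lowest value of 2.19. GSTU20 is at the top with every pmr5 array above every Col-0 array, and 3 genes lie on the dotted line.

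Chromosome position was no part of how the genes were chosen. In TAIR10.1, 10 of the 11 lie on chromosome 1 and GSTU27 on chromosome 3. The 16 GSTU genes that were not analysed are not counted here, so this is not the spread of the whole family over chromosomes. GSTU20, GSTU21, GSTU22 and GSTU23 are consecutive protein-coding genes, and they span the whole range of signals. GSTU20 averaged 11.24 over the 6 arrays, the adjoining GSTU21 and GSTU22 were at 2.19, and GSTU23 averaged 3.60. GSTU26 and GSTU25 also adjoin each other and were both dim, at 3.72 and 2.53. GSTU16, bright at 8.83, and GSTU15, at the lowest value, have 3 protein-coding genes between them. All 11 probe set identifiers carry the plain _at suffix, which Affymetrix gave to probe sets designed for 1 gene. Whether probes of 1 tandem copy also bind another was not tested.

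Mutant and wild type were compared to ask whether these genes differ without infection. GSTU20 read 11.25, 11.60 and 11.50 on pmr5 replicates 1, 2 and 3, against 10.81, 11.16 and 11.11 on Col-0 replicates 1, 2 and 3. Every pmr5 array was above every Col-0 array, with 0.09 log2 units between the lowest pmr5 value and the highest Col-0 value. The means were 11.45 ± 0.18 in pmr5 and 11.03 ± 0.19 in Col-0 (SD, n = 3), a difference of 0.42 (SE 0.14) or 1.34-fold. The 95% interval of this fold was 1.03 to 1.75. The unadjusted p in limma was 0.0377, which 2.6% of all probe sets also passed at the 0.05 level, and the limma adjusted p over all probe sets was 1. An exact permutation of the arrays gave p = 0.1 (2-sided, n = 3 each), the smallest that 3 against 3 allows.

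GSTU20 was the only 1 of the 11 genes whose genotypes did not overlap with pmr5 higher, against 2.41% of all tested probe sets. No member had every pmr5 array below every Col-0 array, against 2.25% of all probe sets. These shares count the 17.7% of probe sets that held 1 value on all 6 arrays and could not separate, as did 3 of the 11 genes. With 1 array left out such separation is more frequent over all probe sets. GSTU18 joined GSTU20 when pmr5 replicate 1 was dropped, where 4.89% of all probe sets were higher without overlap, and when Col-0 replicate 1 was, where 5.43% were. In the other direction, GSTU28 and GSTU23 were lower without overlap when pmr5 replicate 2 was dropped, as were 9.79% of all probe sets. GSTU25 was so when Col-0 replicate 1 was dropped (4.49% of all probe sets), and GSTU27 when Col-0 replicate 3 was (6.93%). For GSTU28 the separation rested on -0.00055 log2 units, pmr5 replicate 1 minus Col-0 replicate 1. Its pmr5 replicate 3 repeated the value of pmr5 replicate 1. The difference of GSTU20 was 0.32 without Col-0 replicate 1, the array that stood apart on the first principal component, and 0.53 without pmr5 replicate 1. Without pmr5 replicate 2, which had the lowest score on the second component, it was 0.35.

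Some measures of the same arrays also separated the genotypes. Both measured guard cell markers, AT1G22690 and FMA, were higher on every pmr5 array, as were 2.41% of all tested probe sets. FMA encodes a transcription factor of guard cell formation. The log2 of the summed signal of both was 10.71 to 10.89 in pmr5 and 10.08 to 10.42 in Col-0, and neither was at the lowest value. This sum was mostly AT1G22690, which averaged 10.77 in pmr5 and 10.18 in Col-0, against 5.66 and 5.50 for FMA. Neither passed an adjusted p under 0.05 in limma. The poly-A control transcripts averaged 5.98 to 6.50 in pmr5 and 6.53 to 6.74 in Col-0. Other measures overlapped between genotypes, among them the array medians, the summed leaf and root markers and the trichome marker TRY. The part of the guard cell markers or the poly-A controls in the difference of GSTU20 was not tested.

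GSTU18 read 9.31, 9.44 and 9.61 on the pmr5 arrays, against 9.32, 9.27 and 9.27 on the Col-0 arrays. The genotypes overlapped through pmr5 replicate 1, which lay 0.01 log2 units below Col-0 replicate 1. The difference was 0.17 (SE 0.09) or 1.12-fold, with a 95% interval of 0.96 to 1.31 for the fold. Its adjusted p in limma was 1, and the exact permutation gave p = 0.2 (n = 3 each). Without pmr5 replicate 3 the difference was 0.09, and without pmr5 replicate 1 it was 0.24.

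GSTU16 read 8.62, 9.03 and 8.82 in pmr5, against 8.63, 8.77 and 9.09 in Col-0. The values of the genotypes were interleaved, with a difference of -0.01 (SE 0.17) and a 95% interval of -0.47 to 0.45 log2 units. The sign turned when 1 array was left out, to 0.12 without Col-0 replicate 3, and to 0.09 when pmr5 replicate 1 was dropped.

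GSTU27 read 7.99, 8.54 and 7.86 in pmr5, against 8.61, 8.65 and 7.93 in Col-0. In pmr5 replicate 2 stood high, and in Col-0 replicate 3 stood low. The genotypes overlapped through Col-0 replicate 3, which lay below 2 of the 3 pmr5 arrays. The difference was -0.27 (SE 0.30), with an interval of -1.07 to 0.54. It was -0.13 without pmr5 replicate 3, -0.14 without Col-0 replicate 2 and -0.16 without Col-0 replicate 1. At the other end it was -0.50 without Col-0 replicate 3 and -0.47 when pmr5 replicate 2 was dropped.

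Among the dim genes, GSTU28 read 3.99, 4.55 and 3.99 in pmr5, against 3.99, 4.08 and 4.22 in Col-0. Its highest array, pmr5 replicate 2, set the sign of its difference, 0.08 (SE 0.19) with that array and -0.11 without it. GSTU26 read 3.58, 3.86 and 3.58 in pmr5, against 4.04, 3.58 and 3.70 in Col-0. Its difference was -0.10 (SE 0.16), and 0.03 without Col-0 replicate 1, its highest array.

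GSTU23 read 3.38, 4.24 and 3.11 in pmr5, against 3.71, 3.46 and 3.71 in Col-0. The pmr5 arrays lay on both sides of the Col-0 arrays, and the difference was -0.05 (SE 0.33). Leaving out pmr5 replicate 2 gave -0.38, replicate 3 gave 0.18 and replicate 1 gave 0.05. GSTU25 read 2.34, 2.35 and 2.34 in pmr5, against 2.34, 3.11 and 2.71 in Col-0. Its difference was -0.38 (SE 0.21), or -0.18 without Col-0 replicate 2 and -0.57 without Col-0 replicate 1. Since the pmr5 values were near the lowest value of the table, only part of a difference could show.

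None of the 11 genes passed an adjusted p under 0.05 in limma, as was the case for 0% of all probe sets, and 1, GSTU20, had an unadjusted p under 0.05. None was 2-fold apart, against 0.932% of all probe sets. Of the 8 genes with a varying signal, 3 had a higher mean in pmr5 (GSTU20, GSTU18 and GSTU28) and 5 a lower one. The median difference was 0 over all 11 genes, -0.03 over these 8 and 0 over all probe sets. A p that misses the threshold does not show equal levels, and the intervals give what these arrays leave possible. Among the bright genes the interval was narrowest for GSTU18 and widest for GSTU27.

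**Figure D2:**
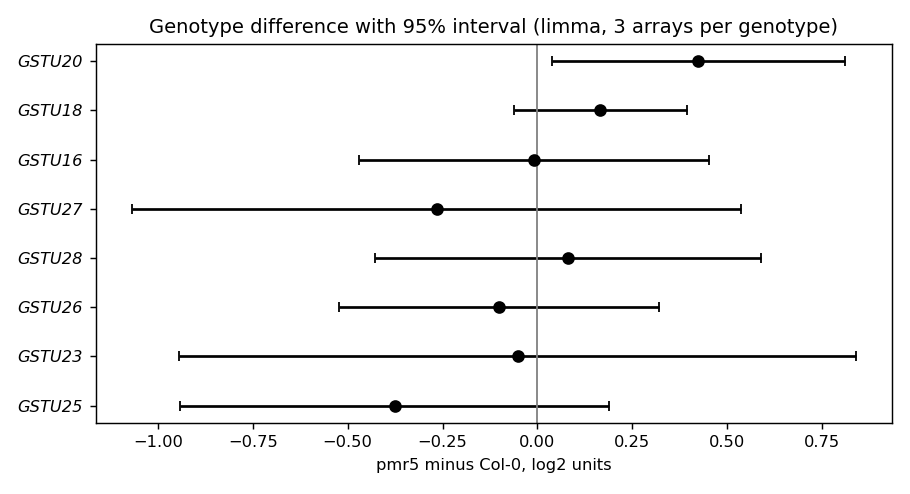
Difference of pmr5 minus Col-0 in log2 units (horizontal axis) for the 8 GSTU genes with a varying signal, with the 95% interval of the limma fit (3 arrays per genotype, not adjusted for the number of probe sets). The interval of GSTU20, 0.04 to 0.81, lies to the right of 0, and those of the other 7 genes include 0.

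Spread within a genotype differed between genes. The SD over the 3 arrays of GSTU20 was 0.18 in pmr5 and 0.19 in Col-0, close to the median of 0.20 over the varying probe sets in each genotype. GSTU18 had 0.15 in pmr5 and 0.03 in Col-0, where its 3 values lay within 0.05 log2 units. Pooled over both genotypes, its SD was 0.11, and 14.8% of the probe sets with a mean signal above 8 had a smaller one. For GSTU20 this share was 42.0%, for GSTU16 53.1% and for GSTU27 79.0%.

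GSTU23 spread most, with an SD of 0.59 in pmr5 and 0.15 in Col-0. It was the 1 gene with a range above 1 log2 unit in a genotype, 1.12 in pmr5. GSTU25 had an SD of 0.003 in pmr5 and 0.38 in Col-0, but its pmr5 values sat close to the lowest value of the table and say little of spread. The SD was larger in pmr5 for 3 genes (GSTU18, GSTU28 and GSTU23) and larger in Col-0 for 5, GSTU25 among them. The median pooled SD was 0.23 over the 8 genes and 0.23 over the 15899 probe sets that varied and never met the lowest value.

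**Figure D3:**
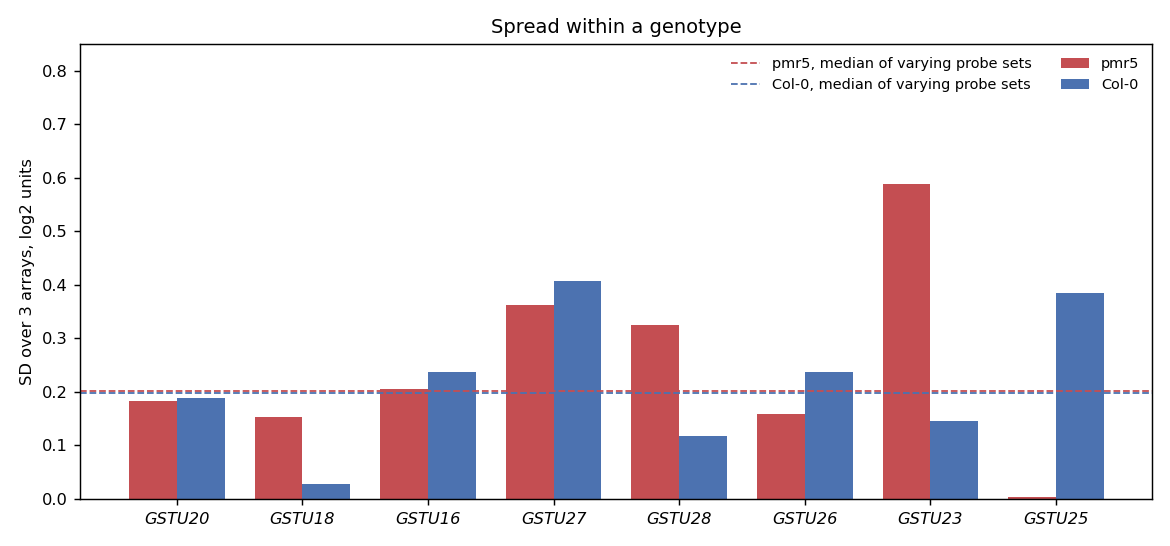
SD over 3 arrays in log2 units (vertical axis) of each GSTU gene with a varying signal, for pmr5 and Col-0. Dashed lines are the medians over the 15899 varying probe sets, 0.20 in both genotypes. GSTU18 in Col-0 and GSTU25 in pmr5 have the shortest bars, and GSTU23 in pmr5 the tallest.

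The pmr5 arrays did not contribute evenly. Replicate 2 held the highest pmr5 value of 7 of the 8 varying genes, and replicate 3 that of GSTU18. Over all varying probe sets replicate 2 held the highest pmr5 value in 38.7%. Averaged over the 8 genes, the deviation from the gene mean was -0.16, 0.24 and -0.11 on pmr5 replicates 1, 2 and 3, against -0.03, 0.05 and 0.01 on Col-0 replicates 1, 2 and 3. The pmr5 arrays therefore lay on both sides of the Col-0 arrays, and the genotype means of this deviation were -0.008 in pmr5 and 0.008 in Col-0.

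The dim genes also carried repeated values. GSTU28, GSTU26 and GSTU25 each held 1 identical value on pmr5 replicates 1 and 3, which was true of 7.33% of the varying probe sets. GSTU26 had the same value, 3.58, on Col-0 replicate 2. Values that coincide in this way on a log2 scale give no order between arrays, and no source used here names the step that made them.

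**Figure D4:**
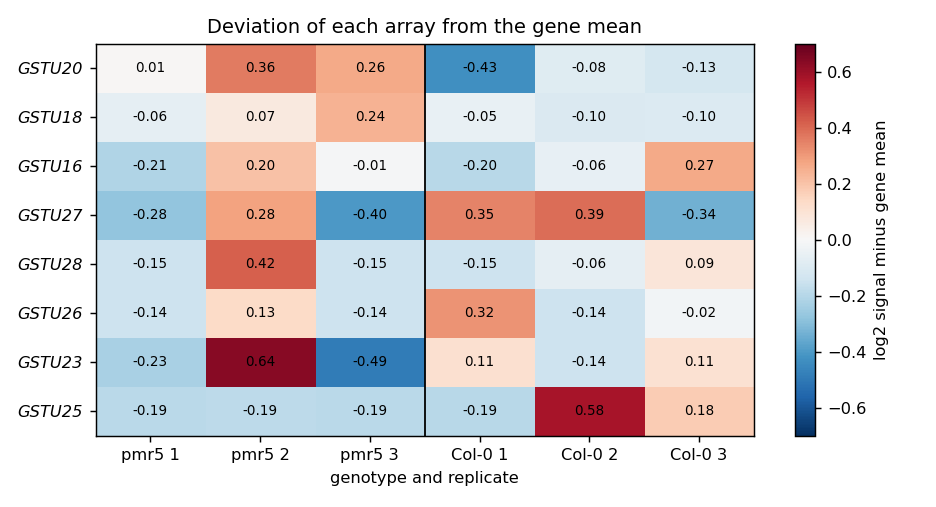
Log2 signal minus the gene's mean over the 6 arrays, for the 8 GSTU genes with a varying signal (rows) on each array (columns, pmr5 left of the line and Col-0 right). Red is above and blue below the gene mean. GSTU20 is below its mean on all 3 Col-0 arrays and above it on all 3 pmr5 arrays, and pmr5 replicate 2 is above the mean in 7 of the 8 rows.

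The likeness of other genes to GSTU20 and GSTU18 was measured as the root mean square difference between values centred on each gene's mean, over the 6 arrays. The candidates were 8945 other probe sets with 1 gene that were above the lowest value on all 6 arrays. Closest to GSTU20 was GLR2.7, for a glutamate receptor-like channel, at 0.06 log2 units. It read 5.73, 5.98 and 5.79 in pmr5, against 5.17, 5.52 and 5.44 in Col-0, with no overlap. As it was chosen by likeness to GSTU20 on the same arrays, this is no separate evidence. Next were APS4, for an ATP sulfurylase of sulfate assimilation, at 0.06 and AT2G16900 at 0.09, both with overlapping genotypes. The genes closest to GSTU18 were AT1G16480 at 0.02, GFAT at 0.04 and AT1G13920 at 0.05. These 3 were dim, with mean signals in pmr5 of 2.50, 4.68 and 3.13, and their likeness is one of small deviations. It rests in part on repeated values. AT1G16480 held 2.36 on pmr5 replicate 1 and every Col-0 array, and GFAT held 4.49 on pmr5 replicate 1 and Col-0 replicates 2 and 3.

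Other genes of glutathione, sulfur and glucosinolate metabolism, detoxification, peroxide scavenging and related regulators were taken from 11 lists. Of these lists, 6 had a measured gene. A gene counted as measured, here and for the markers above, if the annotation pairs at least 1 probe set with it alone. Of 117 listed genes 10 were measured, and 0 passed the adjusted p in either direction. In 1 the genotypes did not overlap, with pmr5 higher, against 2.41% of all probe sets, and in 0 with pmr5 lower, against 2.25%. Their median difference was 0.02, against 0 over all probe sets. No gene on the lists of sulfate assimilation, peroxide scavenging, vacuolar conjugate transporters, TGA factors, and jasmonate and light partners was measured in this sense. This does not show that the array lacks probes for them. APS4, named above, was on none of these lists.

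Of the other transferase classes, GSTL3, a lambda class member, was bright. It read 11.82, 11.54 and 11.75 in pmr5, against 11.72, 11.70 and 11.45 in Col-0, with overlap and a difference of 0.08 (SE 0.12). The phi class gene GSTF4 read 4.69 on all 3 pmr5 arrays, against 5.18, 4.69 and 4.57 in Col-0, and ATGSTF13 was at the lowest value throughout. The glutathione reductase genes, whose enzymes return oxidised glutathione to its reduced form, overlapped as well. GR1 averaged 10.28 ± 0.44 in pmr5 and 10.49 ± 0.44 in Col-0, and GR averaged 10.63 ± 0.15 in pmr5 and 10.59 ± 0.09 in Col-0 (SD, n = 3).

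In the list of aliphatic glucosinolate synthesis, the pathway GSTU20 is assigned to, 2 of 13 genes were measured. BCAT4, for the aminotransferase that starts methionine chain elongation, read 10.42, 10.71 and 10.71 in pmr5, against 9.37, 10.41 and 10.33 in Col-0. Its genotypes were 0.01 log2 units apart at the nearest, and the difference was 0.57 (SE 0.33) with an adjusted p of 1 in limma. As in GSTU20, the lowest array was Col-0 replicate 1, and without it the difference was 0.24 (SE 0.12). AT2G31790 read 8.58, 9.93 and 8.65 in pmr5, against 8.97, 9.20 and 9.08 in Col-0, with the pmr5 arrays on both sides. UGT74B1, for the glucosyltransferase of the glucosinolate core, was the 1 measured gene of the indole glucosinolate and camalexin list. It averaged 9.30 ± 0.50 in pmr5 and 9.25 ± 0.26 in Col-0 (SD, n = 3). The 2 measured genes of the xenobiotic detoxification list, AT2G04050 and AT2G04070, were dim, at 2.23 and 3.00 in pmr5 and 2.22 and 2.97 in Col-0.

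**Figure D5:**
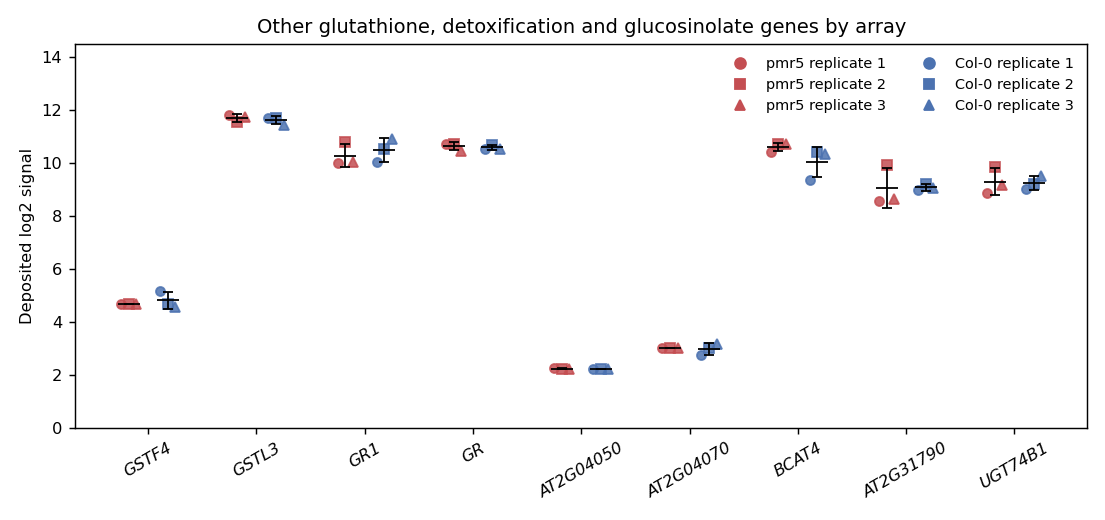
Deposited log2 signal (vertical axis) of the 9 measured genes of the other lists whose signal varied, with pmr5 to the left of Col-0. Symbols are single arrays and bars are mean ± SD of 3 arrays. BCAT4 is the 1 gene whose pmr5 arrays all lie above its Col-0 arrays, by 0.01 log2 units at the nearest.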

How the data were processed

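The authors deposited a log2 signal for each probe set. Per the submitters' processing notes, RMA and the affy package were used, and their versions are not given in the sources used here. Of 22810 probe sets, 64 Affymetrix controls were left out. Genes came from the platform annotation and were matched by gene ID to RefSeq's table (TAIR10.1), used for names and gene order only. The members and lists were chosen with earlier results of these data known.

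The values were fitted as deposited, as pmr5 minus Col-0, with lmFit and eBayes of limma 3.58.1 in R 4.3.3. Tests were 2-sided, with p-values adjusted by Benjamini-Hochberg across the 22746 probe sets and called under 0.05. The number of arrays limits precision. Values within 1e-06 were taken as identical. All 11 genes were named, with up to 4 measured genes of smallest p per list and the 3 genes most alike to GSTU20 and to GSTU18. The fit was tested on simulated data. Alternatives were a replicate block, leaving out each array, centring, quantile normalization, other priors and weights, filters on dim probe sets, Welch's statistic and a threshold of 0.1.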

Additional observations from a re-analysis of the deposited data

How the results depend on the processing

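With 3 arrays per genotype and a lowest value shared by many probe sets, small differences and those of dim genes are limited by spread. The count of GSTU genes past the threshold was 0 under all 15 alternatives. The count of all probe sets was 0, and ranged from 0 to 13 with 1 array left out, reaching 13 without pmr5 replicate 2 and 4 without its replicate 3. It was 2 when pmr5 replicate 1 was dropped, and 2 for Col-0 replicate 3. GSTU20 ranged from 0.32 to 0.53 and GSTU18 from 0.09 to 0.24 with 1 array left out, and both were higher in pmr5 under every alternative, with adjusted p from 0.601 to 1. With 1 array left out GSTU16 ranged from -0.11 to 0.12, GSTU28 from -0.11 to 0.18, GSTU26 from -0.20 to 0.032 and GSTU23 from -0.38 to 0.18. GSTU28 was also -0.050 with array weights, and the cause was not tested. GSTU27 and GSTU25 kept their sign under all alternatives, but array weights gave -0.55 for GSTU27 and -0.58 for GSTU25, and -0.23 for GSTU23. Of the array weights, the lowest was 0.361 for pmr5 replicate 2. The count of genes with every pmr5 array above every Col-0 array, checked after seeing the data, was 1 or 2 with 1 array left out. Over all probe sets 4.27% to 10.4% were so under these settings. The count of genes with every pmr5 array below was 0 to 2, against 3.24% to 9.79% of all probe sets.

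Genotypes share replicate numbers 1 to 3. Over the varying probe sets deviations of same-numbered arrays correlated at 0.12, -0.28 and 0.20. Of the 6 arrays, 3 correlated best with their own number. These values do not settle whether the numbers are pairs, and the main fit did not take them as pairs. With the replicate block the difference of GSTU20 stayed at 0.42 with an SE of 0.017, and those of same-numbered arrays were 0.44, 0.45 and 0.39. For GSTU20 the unadjusted p in limma with this block was 0.00055 and the adjusted p was 1, and 0 probe sets passed. Without the block and with 1 array left out, the unadjusted p of GSTU20 in limma ran from 0.0248 to 0.106. It was under 0.05 only when pmr5 replicate 1 was dropped. No gene had a second probe set to try.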
